A study of Mus musculus with 4 samples.

Results

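The nuclear genome encodes most subunits of the oxidative phosphorylation system, and 76 such genes were followed across the cell states and ages of the postnatal mouse dorsal ventricular-subventricular zone (V-SVZ), the germinal layer that lines the lateral ventricle. The members were the gene symbols beginning with Nduf and a, b, c, s or v and a number, with Uqcr, with Cox4 to Cox8 or with Atp5. Of 80 gene identifiers with such a symbol, 76 reached 50 UMIs (unique molecular identifiers, 1 per captured RNA molecule) summed over the 4 libraries, out of 31053 genes listed. Cox8c, Cox6a2, Cox8b and a second identifier named Atp5o did not reach 50 UMIs. The members held 7575960 of 318856534 UMIs, or 2.38%, and comprised 35 genes of complex I, 8 of complex III, 17 of complex IV and 16 of complex V. The 13 protein-coding genes of the mitochondrial genome (mt- genes), given beside them, held 6571312 UMIs, or 2.06%.

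Oxidative phosphorylation makes ATP at the inner mitochondrial membrane. Complex I takes electrons from NADH and complex II from succinate, complex III passes them from ubiquinol to cytochrome c, complex IV passes them to oxygen, and complex V (ATP synthase) uses the proton gradient that complexes I, III and IV build. Complex II is wholly nuclear-encoded, whereas the other complexes combine nuclear subunits with a few made inside the mitochondrion. Quiescent neural stem cells of the V-SVZ are known for glycolysis and fatty acid oxidation, and oxidative metabolism is known to increase as they are activated.

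The tissue was microdissected from OF1 mice, an outbred strain, with no transgene or treatment named for any group, at postnatal day 2 (P2, 1 library), P12 (2 libraries) and P22 (1 library), and profiled by 10x Genomics 3′ droplet sequencing (version 3 chemistry). The labels give the P12 libraries as independent experiments of 2 males and the P2 and P22 libraries as 2 pooled males each, while the methods state that 2 mice were pooled by time point and that a female was included at P2, so that the number of mice behind each P12 library is not settled. After filtering, 4027 to 7004 cells per library remained, with a median of 11854 to 14303 UMIs per cell. Pairs of libraries shared 5 to 12 barcodes. Cell Ranger is given in the file headers as version 3.1.0 at P12 and 5.0.1 at P2 and P22, so that this version and the contrast of P12 with the other ages cannot be told apart. Cells were classed by clustering with the members, the mt- genes and the pathway lists held out of it, and called "-like" from marker genes: quiescent and activated neural stem cells (qNSC-like, aNSC-like), transit amplifying progenitors (TAP-like), GABAergic and glutamatergic neuroblast-like, ependymal-like, astrocyte-like, oligodendroglial-like, endothelial-like and microglia-like cells. The endothelial-like cluster also held Vtn, a mural cell gene, and the haemoglobin gene Hbb-bs among its leading genes. The qNSC-like cells comprised a subpallial cluster, low in Emx1 and high in Gsx2, and a pair of pallial clusters with the opposite order.

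Promoter sequence was matched in RefSeq (GRCm38.p6) for 64 of the 76 members, 2 of them by an older symbol, and the 250 bases before each start were searched on both strands for the letters of motifs with textbook roles at such genes. The palindromic NRF1 motif is spelled out in capitals in the Atp5g2 sequence. It was present before 4 of 64 members (6.25%) and before 210 of the 27025 genes searched (0.777%). The ETS motif CCGGAAG, the core bound by GABP (NRF2), was present before 10 members (15.6%, against 7.07% of all genes), and the cAMP response element TGACGTCA before 4 (6.25%, against 1.60%). The YY1 letters AAGATGGC were found before none of the members and before 1.58% of all genes, and TATAAA before 6 members (9.38%, against 13.0%). The median GC content of the windows was 55% for the members and 52% for all genes. These shares describe letters in a window, not bound sites.

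The 170 bases before the start of 1 member of each complex with a motif, and of Cox5a, the member with the largest rise at activation and no such letters in its window, are shown 5′ to 3′ on the gene's strand, with NRF1, ETS and cAMP response letters in capitals (CTTCCGG is the ETS motif on the other strand). They lie in GRCm38.p6 at chr17:56717592-56717761, plus strand (complex I), chr4:116075071-116075240, minus strand (complex III), chr5:115348959-115349128, minus strand (complex IV), chr15:102671048-102671217, minus strand (complex V) and chr9:57521062-57521231, plus strand (complex IV). The Atp5g2 window falls within the span of a longer transcript in the GENCODE M21 annotation.
Ndufa11: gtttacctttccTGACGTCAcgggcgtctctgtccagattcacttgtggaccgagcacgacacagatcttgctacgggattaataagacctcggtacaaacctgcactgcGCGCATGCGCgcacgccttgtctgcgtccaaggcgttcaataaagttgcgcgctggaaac
Uqcrh: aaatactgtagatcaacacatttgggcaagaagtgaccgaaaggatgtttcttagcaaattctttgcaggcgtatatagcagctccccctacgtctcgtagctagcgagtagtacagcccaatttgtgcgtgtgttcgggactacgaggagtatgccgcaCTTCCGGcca
Cox6a1: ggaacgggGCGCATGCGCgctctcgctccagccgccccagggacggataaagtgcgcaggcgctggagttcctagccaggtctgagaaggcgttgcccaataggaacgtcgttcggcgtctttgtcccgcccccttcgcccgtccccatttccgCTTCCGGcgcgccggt
Atp5g2: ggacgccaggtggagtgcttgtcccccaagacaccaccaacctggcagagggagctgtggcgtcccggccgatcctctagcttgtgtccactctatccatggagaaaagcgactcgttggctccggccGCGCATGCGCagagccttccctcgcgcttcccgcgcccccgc
Cox5a: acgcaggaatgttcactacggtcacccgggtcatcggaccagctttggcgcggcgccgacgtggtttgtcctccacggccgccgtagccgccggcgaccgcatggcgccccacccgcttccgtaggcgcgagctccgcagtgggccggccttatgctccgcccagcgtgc

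Both NRF1 and cAMP response letters were present before Ndufa11, a membrane arm subunit of complex I, and NRF1 letters with an ETS match before Cox6a1, a small subunit of complex IV. Uqcrh, the hinge protein of complex III, carried an ETS match near its start, and Atp5g2, a c-ring gene of ATP synthase, carried the NRF1 letters.

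Levels differed by library and by cell state. The level of a complex is given in CPM, its summed UMIs scaled to a total of 1000000 UMIs for that class and library. Since 3′ sequencing counts 1 end of each RNA, CPM carries no length term. In qNSC-like cells the members summed to 29205 at P2, 16941 at P12 replicate 1, 16881 at P12 replicate 2 and 22895 at P22. In aNSC-like cells the sum was 32909.6 at P2, 24414 at P12 replicate 1, 23297 at P12 replicate 2 and 30934 at P22. TAP-like cells stood at 30306 at P2, 23322 at P12 replicate 1, 23404 at P12 replicate 2 and 29544 at P22. In each library aNSC-like and TAP-like cells lay above qNSC-like cells, and in each class both P12 libraries lay below P2 and P22.

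The mt- genes followed another order across libraries. In CPM, they summed to 13489 at P2, 16403 at P12 replicate 1, 17199.7 at P12 replicate 2 and 14793 at P22 in qNSC-like cells and to 16739 at P2, 24352 at P12 replicate 1, 25829.6 at P12 replicate 2 and 17880.4 at P22 in aNSC-like cells. Both P12 libraries were here above P2 and P22. The mt- sum of astrocyte-like cells was 15192 at P2, 31019 at P12 replicate 1, 28414 at P12 replicate 2 and 19537 at P22, and their members summed to 30054 at P2, 19639.8 at P12 replicate 1, 19555 at P12 replicate 2 and 26168 at P22. At P12 the mt- genes thus held more UMIs than the members in these cells, and at P2 and P22 fewer.

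Complex by complex, the 2 P12 libraries gave 5918 ± 87.3 CPM (SD, n = 2) of complex I in qNSC-like cells and 7627 ± 376 in aNSC-like cells. Complex III stood at 1734 ± 25.1 and 2299 ± 43.4, complex IV at 4764 ± 24.5 and 6899 ± 235, and complex V at 4494 ± 44.8 and 7029.8 ± 136. The ratio of aNSC-like over qNSC-like cells at P12 was 1.29 for complex I, 1.33 for complex III, 1.45 for complex IV and 1.56 for complex V. Each gap exceeded the SD of the P12 libraries. Counted as UMIs per cell the ratios were 2.59, 2.66, 2.91 and 3.14, and aNSC-like cells held more UMIs per cell over all genes (median 19840 and 27033 in P12 replicates 1 and 2, against 9838 and 12698 in qNSC-like cells).

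Other classes widened the range. In CPM of all members, oligodendroglial-like cells were at 34783 at P2, 24073 at P12 replicate 1 and 29145 at P22, GABAergic neuroblast-like cells at 30590.2 at P2, 20345 at P12 replicate 1 and 26763 at P22 and glutamatergic ones at 29414 at P2, 24562 at P12 replicate 1 and 27948 at P22. Ependymal-like cells, the multiciliated lining of the ventricle, were at 30484 at P2, 18559.7 at P12 replicate 1 and 18148 at P12 replicate 2. Microglia-like cells, with 20 cells or more at P22 alone, held 11701 CPM (95% exact Poisson interval 11464 to 11941), the lowest of the named classes in that library. The intervals cover counting error only.

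**Figure D1:**
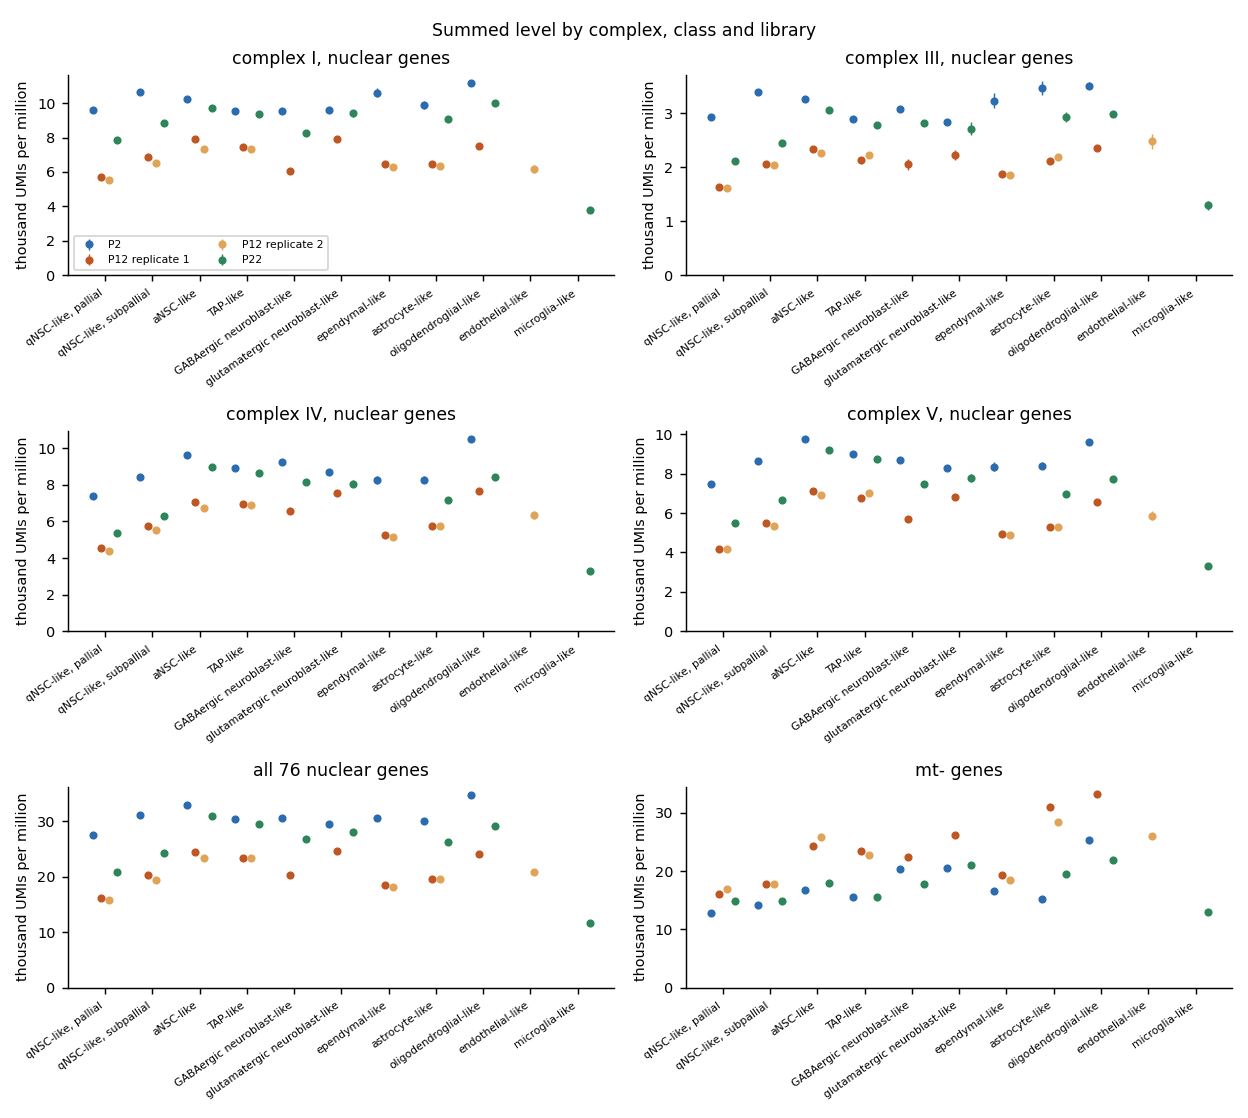
Summed level of each complex, of all 76 members and of the mt- genes (y axis, in units of 1000 CPM) by cell class (x axis), 1 point per library with at least 20 cells of the class, with 95% exact Poisson intervals. In pallial and subpallial qNSC-like, aNSC-like and TAP-like cells the P12 points lie below P2 and P22 for the nuclear-encoded complexes and above them for the mt- genes.

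Quiescent (qNSC-like) and activated (aNSC-like) cells were compared over the 4 libraries with edgeR's quasi-likelihood test on UMIs summed per library and class, with the library as a block and p-values adjusted over all genes tested (Benjamini-Hochberg, threshold 0.05). In aNSC-like cells 36 of 76 members were higher and 4 lower ("rose" and "fell" below, with no order in time implied), against 29.4% of 13695 genes higher and 31.9% lower. The median log2 fold change was 0.30 over the members and -0.04 over all genes. The share that rose was 12 of 16 in complex V, 9 of 17 in complex IV, 13 of 35 in complex I and 2 of 8 in complex III. Of the mt- genes 9 of 13 rose (median 0.41), and all 82 cytosolic ribosomal protein genes tested rose (median 1.18). By library the median log2 ratio of the members was 0.11 at P2, 0.40 at P12 replicate 1, 0.29 at P12 replicate 2 and 0.34 at P22. Values that follow a gene in parentheses are log2 fold changes of the same test. The count of members that rose was 16 without P12 replicate 1 and 23 without P12 replicate 2. With no library block 3 members rose and 2 fell, the library differences then counting as spread. Region also differed between the classes. Of the qNSC-like cells 45.8% were subpallial at P2, 17.4% and 26.7% at P12 replicates 1 and 2, and 51.7% at P22. The aNSC-like cluster, not split by region, held Emx1 at 20.9 and Gsx2 at 44.0 CPM at P12. In the largest pallial qNSC-like cluster these were 84.4 and 0.646 CPM, and in the subpallial one 5.73 and 61.8. The part of region in this contrast was not tested.

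Complex IV held both extremes. Cox5a (ENSMUSG00000000088, chr9:57521274-57532426, plus strand) encodes a subunit on the matrix side of complex IV. Cox5a stood at 385 at P2, 171 at P12 replicate 1, 149 at P12 replicate 2 and 280.2 at P22 in qNSC-like cells, and at 807 at P2, 436 at P12 replicate 1, 336 at P12 replicate 2 and 704 at P22 in aNSC-like cells, in CPM on TMM-adjusted totals as for all values by library that go with a test. It was higher in aNSC-like cells in 4 of 4 libraries, although the ranges of the classes overlapped, and the log2 fold change was 1.23 ± 0.11 (SE), adjusted p = 1.07e-04 (edgeR). Cox4i2 (ENSMUSG00000009876, chr2:152754173-152765037, plus strand) encodes the alternative form of subunit 4, known from lung and from oxygen-sensing cells. Cox4i2 stood at 39.2 at P2, 24.5 at P12 replicate 1, 25.5 at P12 replicate 2 and 48.6 at P22 in qNSC-like cells, and at 0.796 at P2, 2.58 at P12 replicate 1, 1.68 at P12 replicate 2 and 1.60 at P22 in aNSC-like cells. The classes did not overlap, and it fell by 4.21 ± 0.34 (SE) on the log2 scale (edgeR, adjusted p = 6.27e-05). The common form, Cox4i1, did not pass the test (log2 fold change -0.01 ± 0.11). Cox7b2, a paralog of Cox7b first known from testis, fell with a log2 fold change of -1.23, from levels of at most 3.35 CPM, whereas Cox7b rose (0.57).

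Complex V had the largest share of members that rose. The c subunits form the ring that turns in the membrane, and mouse has 3 genes for the same mature peptide. Atp5g1 (ENSMUSG00000006057, chr11:96068852-96075670, minus strand) and Atp5g2 (ENSMUSG00000062683, chr15:102662864-102672352, minus strand) rose and Atp5g3 did not pass the test (log2 fold change 0.30 ± 0.13, edgeR). Atp5g1 stood at 349 at P2, 130.1 at P12 replicate 1, 122 at P12 replicate 2 and 234 at P22 in qNSC-like cells, and at 575 at P2, 362 at P12 replicate 1, 314 at P12 replicate 2 and 518 at P22 in aNSC-like cells. Atp5g2 stood at 793 at P2, 337 at P12 replicate 1, 326 at P12 replicate 2 and 565 at P22 in qNSC-like cells, and at 1166 at P2, 709 at P12 replicate 1, 612 at P12 replicate 2 and 1128 at P22 in aNSC-like cells. Both were higher in aNSC-like cells in 4 of 4 libraries, with overlap between the classes across ages, and the log2 fold changes were 1.18 ± 0.15 (SE), adjusted p = 4.35e-04, and 0.89 ± 0.13 (SE), adjusted p = 8.14e-04 (edgeR). Of 5 genes of the catalytic head and central stalk 4 rose, Atp5b, the catalytic beta subunit, by 0.66 on the log2 scale, and all 3 genes of the membrane part rose. Atp5s, coupling factor B rather than a structural subunit, fell (-0.96).

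Within complex I, 6 of 10 genes of the distal membrane arm rose, 3 of 9 of the electron input arm, 2 of 9 of the proximal membrane arm and 2 of 7 of the ubiquinone-binding arm, where Ndufa6 fell (-0.34). In complex III the 2 risers were small subunits, Uqcrb (0.65) and Uqcrq (0.60), and the core proteins Uqcrc1 and Uqcrc2 did not pass. The counts by arm rest on few genes and were not compared by a test. Outside the members, 5 of 5 subunits that the symbol rule leaves out rose, among them Cycs, cytochrome c (1.84), and 8 of 14 complex I assembly factors rose. Of 16 genes of mitochondrial transcription and its regulators 8 rose and 1 fell: the coactivator Pprc1 rose (2.66) and its relative Ppargc1a fell (-2.45). In the tricarboxylic acid (TCA) cycle 6 of 16 rose and 1 fell, and in glycolysis 4 of 17 rose and 7 fell, with Aldoc, an aldolase of astroglia, at -4.78.

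**Figure D2:**
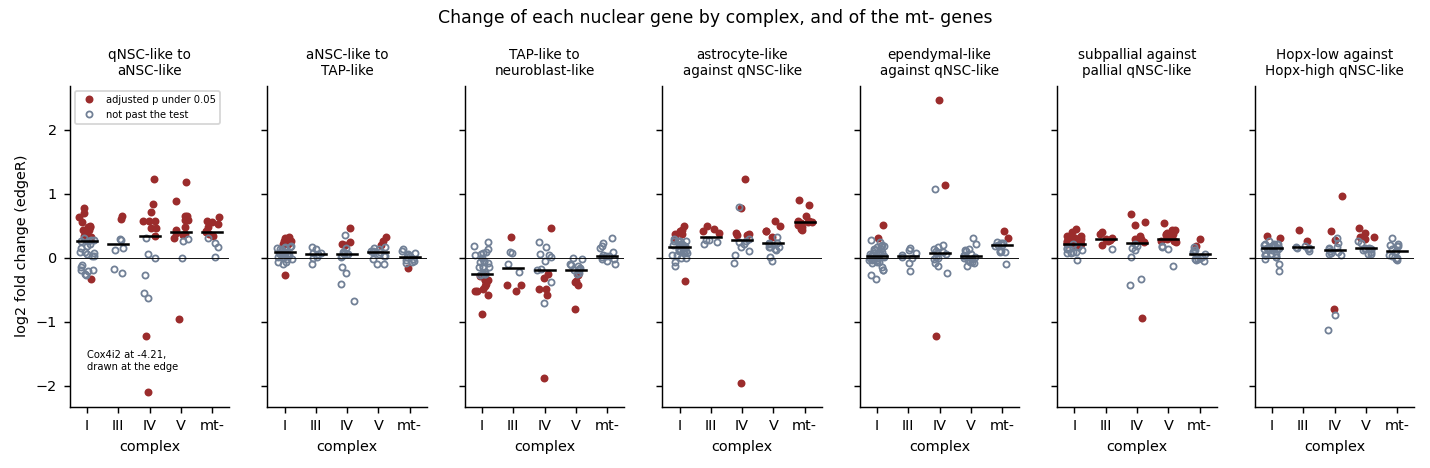
Log2 fold change (y axis) of each member, by complex, and of each mt- gene in the 7 comparisons of cell classes, 1 point per gene, with black bars at the medians and Cox4i2 drawn at the lower edge for activation; filled points passed the edgeR test at an adjusted p of 0.05. Activation and the subpallial against pallial contrast hold most of the higher calls, and the step to neuroblast-like cells most of the lower ones; on library totals without TMM the step to TAP-like cells turns from 15 higher and 1 lower to 3 higher and 13 lower.

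From aNSC-like to TAP-like cells the members moved little. In the edgeR test 15 of 76 were higher and 1 lower (19.9% and 17.2% of 13785 genes), with a median log2 fold change of 0.08 over the members and 0.00 over all genes, but on library totals without TMM 3 were higher and 13 lower, with medians of -0.07 and -0.16. By library the median log2 ratio was 0.00 at P2, 0.08 at P12 replicate 1, 0.16 at P12 replicate 2 and 0.10 at P22 over the members and 0.03 at P2, 0.00 at P12 replicate 1, 0.01 at P12 replicate 2 and 0.02 at P22 over all genes, so that the members lay below all genes at P2 and above them in the other libraries. Cox7a2, the common form of a small complex IV subunit, led the higher calls. Cox7a2 stood at 781 at P2, 412 at P12 replicate 1, 326 at P12 replicate 2 and 714 at P22 in aNSC-like cells, and at 887 at P2, 589.7 at P12 replicate 1, 549 at P12 replicate 2 and 929 at P22 in TAP-like cells. It was higher in 4 of 4 libraries, within overlapping ranges, with a log2 fold change of 0.46 ± 0.08 (SE), adjusted p = 0.0019 (edgeR). Ndufb11 of complex I (0.33) and Atp5g2 (0.32) followed, and Ndufb4, also of complex I, was lower (-0.27), but with classes from marker thresholds in place of clusters Ndufb4 turned to 0.32, Ndufb11 turned to -0.0019 and 23 members were higher. Of the mt- genes 1 of 13 passed, mt-Nd2 (-0.16), while 10 of 17 glycolytic genes were lower and none higher, Aldoa at -1.29. Leaving out P12 replicate 1 left 7 higher calls of members, P12 replicate 2 left 5 and P22 left 5.

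From TAP-like to neuroblast-like cells, compared over 3 libraries because P12 replicate 2 held 15 such cells, 28 of 76 members were lower and 2 higher (edgeR), against 23.6% and 22.4% of 14525 genes. The median was -0.20 over the members and 0.02 over all genes, and on library totals without TMM 14 were lower and 5 higher, with medians of -0.04 and 0.19. The lower calls comprised 14 of 35 genes of complex I, 3 of 8 of complex III, 6 of 17 of complex IV and 5 of 16 of complex V, and no mt- gene passed (edgeR; 0 of 13 also at an unadjusted p under 0.05). Ndufc2 stood at 835 at P2, 589 at P12 replicate 1 and 708 at P22 in TAP-like cells, and at 471 at P2, 294 at P12 replicate 1 and 400.1 at P22 in neuroblast-like cells. Ndufc2, a membrane arm subunit with the most UMIs in complex I, thus lay lower in each of 3 libraries without overlap, with a log2 fold change of -0.88 ± 0.09 (SE), adjusted p = 6.31e-04 (edgeR). Atp5g2 stood at 1290.2 at P2, 791 at P12 replicate 1 and 1330.0 at P22 in TAP-like cells, and at 752 at P2, 444 at P12 replicate 1 and 777 at P22 in neuroblast-like cells. The fall of Atp5g2 was 0.80 on the log2 scale, so that the c-ring gene that was higher in TAP-like cells was lower again in neuroblast-like cells. Cox6b2, a paralog of Cox6b1 first known from testis, fell (-1.88) from at most 8.84 CPM.

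The 2 members that rose were Cox7a2l, a factor that joins complexes III and IV in supercomplexes (0.46), and Uqcrh (0.33). Among the other lists 7 of 16 TCA cycle genes fell and none rose, Suclg2 by 2.41 on the log2 scale, and 9 of 17 genes of mitochondrial transcription and its regulators fell and 2 rose. Glycolysis was split, with 6 higher and 7 lower, Hk2 (-3.11) and Eno2, the neuronal enolase (2.83), at its ends. The lower calls of members were 16 without P12 replicate 1 and 16 without P22, the higher calls were 1 without P2 and 0 without P22, and with classes from marker thresholds in place of clusters 4 were lower and 5 higher.

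Ependymal-like cells, known for their many mitochondria, differed from qNSC-like cells in few members. Over 3 libraries, P22 having 15 ependymal-like cells, 4 of 76 were higher and 1 lower (12.6% and 8.84% of 13084 genes, edgeR), with medians of 0.03 over the members and -0.05 over all genes. Cox6b2 stood at 14.6 at P2, 10.4 at P12 replicate 1 and 15.8 at P12 replicate 2 in qNSC-like cells, and at 73.0 at P2, 20.4 at P12 replicate 1 and 20.9 at P12 replicate 2 in ependymal-like cells. It was higher in 3 of 3 libraries without overlap, most of all at P2, with a log2 fold change of 1.14 ± 0.29 (SE), adjusted p = 0.014 (edgeR). Ndufa4l2, a paralog of the complex IV subunit Ndufa4 that is induced in hypoxia, was also higher (2.46), on 7, 12 and 13 UMIs in the P2 and P12 libraries, as were Ndufb5 (0.52) and Ndufb10 (0.32) of complex I. Cox4i2 was lower (-1.22), and 2 of 13 mt- genes were higher, mt-Co1 (0.31) and mt-Nd6 (0.41). The aNSC-like, ependymal-like and astrocyte-like comparisons share the same qNSC-like sums. The P2 library decided the count: without it, 20 members were higher and 3 lower, and the median of the members was -0.13 at P2, 0.14 at P12 replicate 1 and 0.09 at P12 replicate 2.

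Astrocyte-like cells were higher than qNSC-like cells in a part of the members and in all mt- genes. Of the 75 members tested (Ndufa4l2 did not pass the filter on low counts) 21 were higher and 2 lower (13.9% and 14.2% of 13102 genes, edgeR), with medians of 0.22 over the members and -0.02 over all genes, and all 13 mt- genes were higher (median 0.55). The higher calls were 6 of 35 in complex I, 4 of 8 in complex III, 6 of 16 in complex IV and 5 of 16 in complex V. Cox5a stood at 379 at P2, 165 at P12 replicate 1, 144 at P12 replicate 2 and 273 at P22 in qNSC-like cells, and at 453 at P2, 291 at P12 replicate 1, 277 at P12 replicate 2 and 571 at P22 in astrocyte-like cells. The astrocyte-like value was the higher one in 4 of 4 libraries, within overlapping ranges, with a log2 fold change of 0.78 ± 0.14 (SE), adjusted p = 0.0028 (edgeR). Atp5b (0.57) and Uqcrfs1, the Rieske iron-sulfur protein of complex III (0.50), were higher as well, and Cox4i2 (-1.96) and Ndufc2 (-0.37) lower. The TCA cycle had 7 of 16 genes higher and none lower, and the regulators Esrra (1.16) and Ppargc1a (0.66) were higher. By library the median of the members was -0.03 at P2, 0.26 at P12 replicate 1, 0.29 at P12 replicate 2 and 0.35 at P22. The count of higher members was 5 without P12 replicate 1, 3 without P12 replicate 2 and 35 without P2, with 1 lower in each of these.

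Within the cells named qNSC-like the members differed by region. The dorsal V-SVZ holds qNSCs of a pallial and of a subpallial lineage side by side, and the study set the one against the other. In subpallial cells 51 of 75 members tested (Ndufa4l2 again left out) were higher and 1 lower, against 11.9% and 11.8% of 13069 genes (edgeR), and the median was 0.25 over the members and -0.01 over all genes. The higher calls were 24 of 35 in complex I, 7 of 8 in complex III, 8 of 16 in complex IV and 12 of 16 in complex V. In summed CPM at P12 the ratio of subpallial over pallial cells was 1.19, 1.26, 1.26 and 1.30 for complexes I, III, IV and V. By library 65, 71, 71 and 65 of the 75 members lay above 0 at P2, P12 replicate 1, P12 replicate 2 and P22, and their medians were 0.16 at P2, 0.32 at P12 replicate 1, 0.29 at P12 replicate 2 and 0.19 at P22. Of the mt- genes 2 of 13 were higher, mt-Co1 (0.29) and mt-Nd5 (0.18), and the median of their log2 ratios was 0.13 at P2, 0.09 at P12 replicate 1, 0.02 at P12 replicate 2 and -0.14 at P22. Ribosomal protein genes were higher in 16 of 82 (median 0.14). Without P12 replicate 1 the higher members numbered 21, and without P12 replicate 2 they numbered 24. With no library block none passed in either direction (edgeR; 1 at an unadjusted p under 0.05). An unnamed cluster led by Igf1, closest to the qNSC markers, was in neither class, with Emx1 at 98.2 and Gsx2 at 1.97 CPM at P12. Its sums are given at the end. With no gene held out of clustering, a cluster led by Igf1 counted as pallial and another stayed unnamed. In that setting 47 of 76 members were higher in subpallial cells and 1 lower (edgeR).

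**Figure D3:**
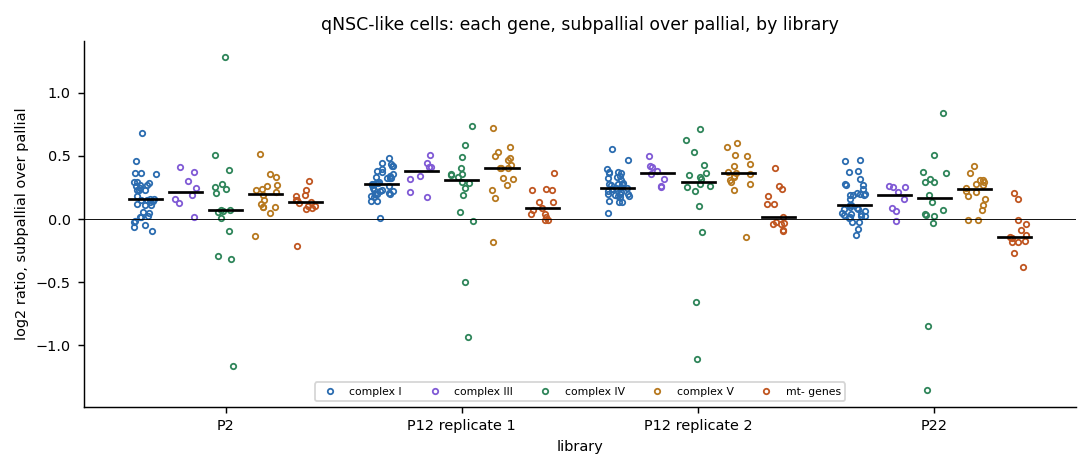
Log2 ratio of subpallial over pallial qNSC-like cells (y axis) for each member by complex and each mt- gene, in each of the 4 libraries (x axis); black bars are medians. The medians of the 4 complexes lie above 0 in every library, and that of the mt- genes lies between -0.14 and 0.13.

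Each complex had members among the calls. Cox5a stood at 329.5 at P2, 149 at P12 replicate 1, 123 at P12 replicate 2 and 235 at P22 in pallial cells, and at 432 at P2, 248 at P12 replicate 1, 201 at P12 replicate 2 and 304 at P22 in subpallial cells. It was higher in subpallial cells in 4 of 4 libraries, within overlapping ranges, with a log2 fold change of 0.56 ± 0.08 (SE), adjusted p = 2.93e-04 (edgeR). Atp5g1 stood at 285 at P2, 113 at P12 replicate 1, 104 at P12 replicate 2 and 202 at P22 in pallial cells, and at 406 at P2, 187 at P12 replicate 1, 158 at P12 replicate 2 and 251 at P22 in subpallial cells. All 3 c-ring genes were higher, Atp5g1 (0.55), Atp5g3 (0.44) and Atp5g2 (0.31), and 4 of 5 genes of the catalytic head and central stalk. In complex I the electron input arm had 7 of 9 genes higher and the ubiquinone-binding arm 6 of 7, with Ndufa1 (0.45) and Ndufs3 (0.40) leading. In complex III both core proteins, the Rieske protein and 4 of 5 small subunits were higher. Cox4i1 did not pass the test (0.12 ± 0.07 SE), and Cox6a1, Cox6b1 and Ndufa4 did not either.

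The isoforms of complex IV went opposite ways. Cox6b2 (ENSMUSG00000051811, chr7:4751792-4753094, minus strand) rose: Cox6b2 stood at 8.17 at P2, 9.25 at P12 replicate 1, 13.3 at P12 replicate 2 and 20.0 at P22 in pallial cells, and at 20.1 at P2, 13.1 at P12 replicate 1, 19.3 at P12 replicate 2 and 35.9 at P22 in subpallial cells. The ranges overlapped but the direction was the same in 4 of 4 libraries, with a log2 fold change of 0.68 ± 0.13 (SE), adjusted p = 0.0024 (edgeR). Cox4i2 was the lower member: it stood at 42.7 at P2, 26.9 at P12 replicate 1, 30.2 at P12 replicate 2 and 76.2 at P22 in pallial cells, and at 34.3 at P2, 14.0 at P12 replicate 1, 13.9 at P12 replicate 2 and 29.8 at P22 in subpallial cells, a log2 fold change of -0.95 ± 0.13 (SE), adjusted p = 3.26e-04 (edgeR).

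Other energy genes were also higher in subpallial cells. The list of 4 complex II genes had 3 higher, among them Sdhd (0.42) and Sdhb (0.34), and the TCA cycle had 13 of 16 higher and none lower, with Idh3a (0.53) and Pdha1 of pyruvate dehydrogenase (0.51). In glycolysis 9 of 17 were higher, Eno1 by 0.82, and 3 lower. Among regulators 2 of 16 passed, Esrra (0.67) and Ppargc1a (0.46), both activators of these genes. Of the ependymal markers tested 5 of 7 were higher in subpallial cells (median log2 fold change 1.29), of the astrocyte markers 5 of 9 were higher and 2 lower (median 0.58), with sums of 161 to 249 against 82.3 to 169 CPM and of 659 to 866 against 493 to 677 CPM by library, no marker of either list being at 0 in either class. Their part in the result was not tested. In ependymal-like cells the ependymal sum was 1667 to 2522 CPM. Median UMIs per cell were also higher in subpallial cells (17329 against 15732 at P2, 11962 against 9515 and 15140 against 12027 at P12, 10596 against 7375 at P22).

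Hopx, a homeodomain gene that the study used to mark pallial quiescence, gave a related contrast. In qNSC-like cells with Hopx below 0.4 against those above 2.5 on the log-normalized scale, 12 of 75 members were higher and 1 lower (5.63% and 6.46% of 12500 genes, edgeR), with medians of 0.15 over the members and 0.02 over all genes and no mt- gene passing (edgeR; 2 of 13 at an unadjusted p under 0.05). By library the median log2 ratio was 0.21 at P2, 0.11 at P12 replicate 1, 0.17 at P12 replicate 2 and 0.12 at P22 over the members and 0.09 at P2, 0.00 at P12 replicate 1, 0.00 at P12 replicate 2 and 0.18 at P22 over all genes, and at P22 the members thus lay below all genes, with 26 of 75 above their median. Atp5b stood at 392 at P2, 334 at P12 replicate 1, 291 at P12 replicate 2 and 347 at P22 in Hopx-high cells, and at 509 at P2, 440.5 at P12 replicate 1, 417 at P12 replicate 2 and 529.9 at P22 in Hopx-low cells. Atp5b was higher in 4 of 4 libraries without overlap, with a log2 fold change of 0.47 ± 0.09 (SE), adjusted p = 7.38e-04 (edgeR), followed by Uqcr10 (0.43) and, at lower levels, Cox6b2 (0.96). Cox4i2 was the lower member (-0.81), although not in every library. The higher members numbered 4 without P12 replicate 1 and 2 without P12 replicate 2, the lower ones 0 without P12 replicate 2 or P22 and 2 without P2, and DESeq2 called 6 higher and none lower.

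Hopx and region overlapped. Subpallial cells made up 47.7% to 80.5% of Hopx-low cells but 0.510% to 5.88% of Hopx-high cells by library. With pallial cells alone, a setting added after the data were seen, no member was called in either direction (edgeR, 0 of 74; 6 at an unadjusted p under 0.05) and the median was -0.06. With Hopx-low cells alone, also added later, the subpallial against pallial difference kept 37 higher and 1 lower of 74 members, 35 of them shared with the 51, and a median of 0.28. The smallest class was the 28 Hopx-high cells of P22, so that the pallial setting rests on fewer cells.

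The assembly factors of complexes I and IV, which build the complexes without staying in them, stand here beside the subunits. Of all genes tested, 29.4% were higher and 31.9% lower at activation, 19.9% and 17.2% in TAP-like and 22.4% and 23.6% in neuroblast-like cells. The shares were 12.6% and 8.84% in ependymal-like, 13.9% and 14.2% in astrocyte-like and 11.9% and 11.8% in subpallial cells. The counts below were not compared with these shares by a test. Given as higher and lower of those tested, complex I assembly factors had 1 and 3 of 14 in TAP-like against aNSC-like cells, 1 and 5 of 14 in neuroblast-like against TAP-like cells, 3 and 2 of 14 in astrocyte-like cells and 3 and 0 of 14 in subpallial cells. Complex IV assembly factors had 4 and 2 of 19 at activation, 1 and 3 of 19 in TAP-like, 3 and 3 of 19 in neuroblast-like, 1 and 0 of 19 in astrocyte-like and 1 and 0 of 19 in subpallial cells. Ndufaf3, which helps to build complex I, had the largest change of its list in TAP-like (1.39) and in ependymal-like cells (1.67). Complex III assembly had 1 and 1 of 6, 0 and 2 of 6, 2 and 1 of 6, 1 and 0 of 6 and 0 and 0 of 6 in the same order. Complex II had 1 and 1 of 4 at activation and 0 and 2 of 4 in neuroblast-like cells, with Sdhb at 0.38 and -0.30 on the log2 scale. Cycs, which carries electrons from complex III to IV, had log2 fold changes of -1.05 in neuroblast-like, 1.12 in astrocyte-like and 0.57 in subpallial cells, all past the test.

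Paralogs of complex IV and V were read as shares of the family's UMIs in each class, and each share is a range over the libraries with at least 20 cells. Cox4i2 made up 3.53 to 7.95% of COX4 UMIs in pallial and 1.78 to 3.18% in subpallial qNSC-like cells, 0.702 to 1.05% in astrocyte-like, 0.488 to 1.74% in ependymal-like, 0.0676 to 0.368% in aNSC-like, 0.0699 to 0.227% in TAP-like and 0.0338 to 0.0442% in oligodendroglial-like cells. Its share in qNSC-like cells was thus above that of oligodendroglial-like cells, where 6 UMIs in 3 libraries set the background. Over all libraries its level was 28.6 CPM (95% interval 27.5 to 29.7) in qNSC-like cells and 1.87 CPM (95% interval 1.37 to 2.51) in aNSC-like cells.

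In the c-ring, Atp5g2 held 50.4 to 53.9% of the family's UMIs in qNSC-like, 51.7 to 57.2% in aNSC-like and 55.7 to 62.9% in TAP-like cells. Atp5g1 held 19.1 to 22.4% in qNSC-like and 26.3 to 27.5% in aNSC-like cells, and Atp5g3 23.8 to 30.0% and 16.5 to 21.9%, with no overlap between the classes for either gene. Cox6b2 reached 4.92 to 9.16% of COX6B UMIs in ependymal-like cells, against 0.119 to 1.03% in GABAergic neuroblast-like cells. In CPM, Cox6b2 was at 72.2 at P2, 20.6 at P12 replicate 1, 22.2 at P12 replicate 2 and 20.2 at P22 in ependymal-like cells, and at 16.4 at P2, 24.4 at P12 replicate 1, 28.1 at P12 replicate 2 and 24.3 at P22 in oligodendroglial-like cells (4 cells in P12 replicate 2). Ependymal-like cells were above oligodendroglial-like cells at P2 alone, and over the libraries without P2 they had 21.4 against 24.3 CPM. Cox7a1, the heart and muscle form, stayed at 0.865 to 1.19% of COX7A UMIs in qNSC-like cells and 1.48 to 2.79% in ependymal-like cells, where 21 of its 58 UMIs came from the 15 cells at P22, not in this range. Without P22 it had 6.53 CPM in ependymal-like cells. Cox7b2 stood at 1.18 at P2, 5.07 at P12 replicate 1, 9.80 at P12 replicate 2 and 7.87 at P22 CPM in astrocyte-like cells, and at 2.61 at P2, 2.61 at P12 replicate 1, 3.62 at P12 replicate 2 and 2.21 at P22 CPM in qNSC-like cells. The astrocyte-like value was the higher one in the P12 and P22 libraries, and the lower one at P2, where it rests on 1 UMI. Cox6a2, Cox8b and Cox8c, known as muscle or testis forms, were close to absent, with 19, 28 and 9 UMIs in the 4 libraries. Reads that fit more than 1 paralog or a processed copy could not be followed in these counts, and the shares are uncertain to that extent.

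**Figure D4:**
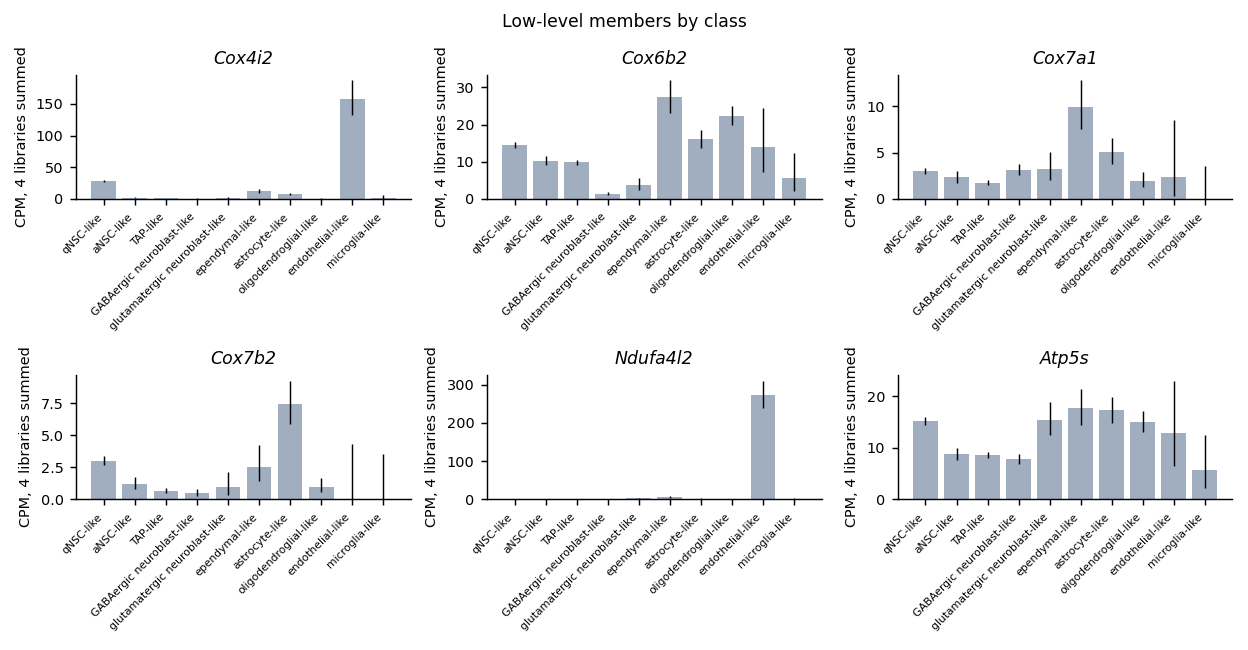
Level of 6 members with low counts (y axis, CPM with the 4 libraries summed) by cell class (x axis), with bars for the level and lines for the 95% exact Poisson interval, which covers counting error only. Cox4i2 and Ndufa4l2 are highest in endothelial-like cells, and Cox4i2 next in qNSC-like cells; the bars of Cox6b2 and Cox7a1 in ependymal-like cells and of Cox7b2 in astrocyte-like cells pool libraries that differ, as P2 lifts the first, 15 cells at P22 the second and P12 replicate 2 the third.

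Levels differed between ages, but the design gives little power to test this. A trend over age in days (1 library at P2, 2 at P12, 1 at P22) called no member in qNSC-like (0 of 76), TAP-like (0 of 76) or ependymal-like cells (0 of 75; P22 with 15 cells), with edgeR and with DESeq2, and 0, 0 and 4 members had an unadjusted p under 0.05 in edgeR. Of all genes 0.0206%, 0.0% and 0.0757% passed the edgeR test. The difference of the activation change with age called 0 of 76 members, with edgeR and DESeq2 and also at an unadjusted p under 0.05, and 0.0% of all genes in edgeR. These trends are linear, whereas the levels were lowest at P12. Without P22 the median log2 change of the members per step between sampled ages was -1.04 in qNSC-like and -0.86 in ependymal-like cells. Over all genes it was 0.12 and 0.11. Without P2 the medians of the members were 0.65 and 0.38, against -0.09 and -0.15 over all genes.

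The pattern itself was high at P2, low at P12 and intermediate or high at P22. In qNSC-like cells 66 of 76 members had a CPM above both P12 libraries at P2 and at P22 (21.1% of all genes), in aNSC-like cells 64 of 76 (19.9%), in TAP-like cells 63 of 76 (19.3%) and in ependymal-like cells, with 15 cells at P22, 56 of 75 (19.7%). For the mt- genes the count was 0 of 13, 0 of 13, 1 of 13 and 1 of 13. The cytosolic ribosomal protein genes showed the pattern in 70, 56, 55 and 59 of 82. The members' sum at P2 was 1.73 times the P12 mean in qNSC-like cells, 1.38 times in aNSC-like and 1.30 times in TAP-like cells, and at P22 it was 1.35, 1.30 and 1.26 times. P2 and P22 have 1 library each, so that these ratios carry no replicate check, and the Cell Ranger version changes with them. The make-up of the qNSC-like class changed as well. Subpallial cells were 45.8% of it at P2, 17.4% and 26.7% at P12 replicates 1 and 2, and 51.7% at P22. In pallial and in subpallial qNSC-like cells taken apart, the nuclear-encoded complexes were also lower at P12 than at P2 and P22. How much the make-up adds to the qNSC-like ratios was not tested.

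Single genes showed the size of the shift. Uqcrh stood at 661 at P2, 360.3 at P12 replicate 1, 383 at P12 replicate 2 and 410.4 at P22 in qNSC-like cells (CPM, as for the next genes). Cox7c, a small complex IV subunit, stood at 1105 at P2, 607 at P12 replicate 1, 651 at P12 replicate 2 and 835 at P22. Atp5e, the epsilon subunit of ATP synthase, was at 990.2 at P2, 451 at P12 replicate 1, 528 at P12 replicate 2 and 660.1 at P22. All 3 were highest at P2 and lowest in the P12 libraries. Of the qNSC-like cells' members 2 went the opposite way, below both P12 libraries at both other ages, and were picked out after their values were seen. Cox7b stood at 343 at P2, 507 at P12 replicate 1, 395 at P12 replicate 2 and 259.6 at P22. Ndufs1, the largest subunit of complex I, was at 55.7 at P2, 60.7 at P12 replicate 1, 59.5 at P12 replicate 2 and 57.7 at P22, a gap of a few CPM. In TAP-like cells Cox7b and Ndufs1 again lay below both P12 libraries at P2 and P22, with Atp5a1 and Cox6b2.

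**Figure D5:**
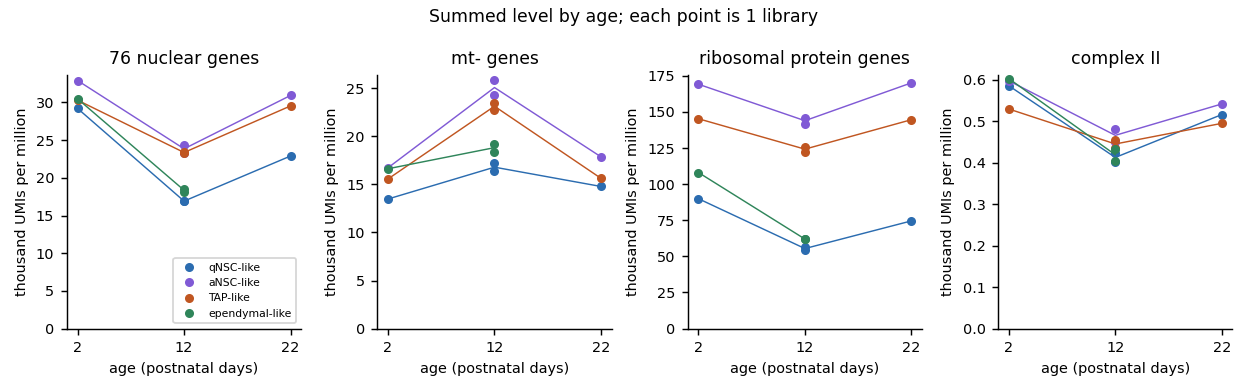
Summed level (y axis, in units of 1000 CPM) of the 76 members, the mt- genes, the ribosomal protein genes and complex II at P2, P12 and P22 (x axis, postnatal days) in qNSC-like, aNSC-like, TAP-like and ependymal-like cells, 1 point per library with lines through the mean of each age; P22 ependymal-like cells are left out, with 15 cells. The members and the ribosomal protein genes are lowest at P12 in the 4 classes drawn. The mt- genes are highest at P12 in qNSC-like, aNSC-like and TAP-like cells. In ependymal-like cells the median mt- share per cell was 1.70% at P2, 1.72% at P12 replicate 1 and 1.65% at P12 replicate 2.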

How the data were processed

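UMI counts per gene and cell from 10x Genomics 3′ libraries were analysed as deposited: the authors counted reads with Cell Ranger against mm10 (3.1.0 per the labels, 3.1.0 or 5.0.1 per the file headers) and did not normalize these counts. Multi-mapped reads cannot be followed in them. Library depth was 65323423 to 106402687 UMIs. Cells with 2000 to 8000 genes and at most 10% mt- UMIs were kept, 19857 of 24505. The P12 libraries were integrated in Seurat 5.3.0 (2000 genes, 20 components, resolution 0.5, 16 clusters, 196 genes of the members and lists held out) and their classes transferred to P2 and P22. Clusters without clear markers stayed unnamed. Doublets were scored with Scrublet in Scanpy 1.11.5 and kept, and an alternative removed the top 5% of scores; the caller marked 0.065% of P12 replicate 2, so it did not work there.

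UMIs were summed per library and class (at least 20 cells) and tested with edgeR 4.0.16 (quasi-likelihood, TMM, filterByExpr, R 4.3.3), with the library as a block because a library's classes share their tissue. Age trends used all 4 libraries, without a block. Benjamini-Hochberg adjustment ran over all genes tested, with a threshold of 0.05. Each test was also run on counts simulated from its own fit. Alternatives included DESeq2 1.42.0 and others given at the end. The p-values of the class comparisons measure how far the class difference varies between these libraries, which also differ in age. Those of the age trends measure the spread of the libraries around the trend. Either spread may in part be technical. Poisson intervals (95%) cover counting error only.

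Members, lists and tests were chosen with earlier results of these data known. Named members were those with the largest called changes in each direction that had the same sign in every library, the member with most UMIs in each complex, and all paralogs; pathway genes were the largest called changes of each list. Other genes named were picked after their values were seen.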

Additional observations from a re-analysis of the deposited data

Results flagged for a closer look

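Endothelial-like cells entered no comparison, since only P12 replicate 2 held at least 20 of them. With the 4 libraries summed, 2 members stood far above their pooled level in the classes compared. Ndufa4l2 reached 272.9 CPM over the 4 libraries (95% exact Poisson interval 239 to 310.3), from 45, 59, 23 and 106 UMIs of 62548, 170159, 473823 and 147201 at P2, P12 replicate 1, P12 replicate 2 and P22, against 1.10 CPM over the classes compared, a ratio of 248. By library that is 719, 347, 48.5 and 720.1 CPM, and 553 CPM without P12 replicate 2. Cox4i2 reached 158 CPM (133 to 187), from 30, 30, 16 and 59 UMIs in the same order, against 10.9 CPM, a ratio of 14.5. Its levels by library were 479.6, 176, 33.8 and 401 CPM, and 313 CPM without P12 replicate 2. The interval covers counting error and not this spread, and P12 replicate 2, with the most cells of the class, was the lowest library for both genes. The class holds 69 cells in all, and a count of 3 UMIs in it equals 3.51 CPM. The mural cell gene Vtn was among its leading genes. Whether the UMIs of both genes come from the same endothelial-like cells was not tested. In qNSC-like cells Cox4i2 stood at 35.5, 25.4, 27.5 and 45.7 CPM at P2, P12 replicate 1, P12 replicate 2 and P22. The endothelial-like level was thus close to this in P12 replicate 2, and well above it at P2, P12 replicate 1 and P22, on 5, 18 and 17 cells. In P12 replicate 2 Cox4i2 made up 4.23% of COX4 UMIs in endothelial-like and 4.80% in pallial qNSC-like cells.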

How the results depend on the processing

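Counts are members higher and lower. With no replicate block they were 3 and 2 (qNSC-like to aNSC-like), 0 and 0 (to TAP-like), 0 and 2 (to neuroblast-like), 1 and 0 (ependymal-like), 0 and 1 (astrocyte-like), 0 and 0 (subpallial) and 0 and 0 (Hopx-low). DESeq2 gave 2 lower (TAP-like), 1 higher (neuroblast-like) and 6 and 0 (Hopx-low). No filter gave 26 higher (TAP-like), 1 higher (neuroblast-like), 3 lower (ependymal-like), 12 higher (astrocyte-like), 2 lower (subpallial) and 1 higher (ependymal-like age trend). Totals without TMM gave 3 and 13 (TAP-like), 5 and 14 (neuroblast-like) and 10 and 2 (ependymal-like). P12 libraries only gave 2 lower (TAP-like), 20 and 3 (ependymal-like), 49 higher (astrocyte-like), 2 lower (subpallial) and 21 higher (Hopx-low). Cells with 2500 to 7500 genes gave 1 higher (neuroblast-like) and 1 lower (astrocyte-like), removal of the top doublet scores 2 lower (TAP-like), clustering with no gene held out 2 lower (ependymal-like), and classes from marker thresholds 23 higher (TAP-like), 5 and 4 (neuroblast-like) and 1 lower (astrocyte-like). Pallial cells alone gave 0 and 0 (Hopx-low).

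Leaving out 1 library at a time gave 16 to 42 higher and 3 to 3 lower (aNSC-like), 5 to 17 and 1 to 1 (TAP-like), 0 to 2 and 16 to 20 (neuroblast-like), 3 to 20 and 1 to 3 (ependymal-like), 3 to 35 and 1 to 2 (astrocyte-like), 21 to 56 and 1 to 2 (subpallial), 2 to 16 and 0 to 2 (Hopx-low), 0 to 6 and 0 to 64 (qNSC-like age trend) and 0 to 2 and 0 to 52 (ependymal-like age trend). The cause of these changes was not tested.

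Of 1640 values of single genes under the alternatives, 1394 kept direction and call, 240 kept direction only and 6 reversed: with marker thresholds Ndufb11 (-0.0019), Ndufb4 (0.32) and Pprc1 (0.34) to TAP-like, Sdhb (0.037) to neuroblast-like and Nubpl (0.68) in astrocyte-like cells, and with Hopx-low cells only Cox18 (-0.049) in subpallial cells.

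The P12 ratio for complexes I, III, IV and V was 2.59, 2.66, 2.91 and 3.14 (aNSC-like over qNSC-like) and 1.48, 1.57, 1.57 and 1.61 (subpallial over pallial) in UMIs per cell, and 1.44, 1.48, 1.62 and 1.75 (aNSC-like over qNSC-like), with 1.27 for complex III (subpallial over pallial), without mt- and ribosomal genes in the totals. In simulated counts 100 genes were changed at each of 2 sizes, of 13695 genes for activation. For activation the test recovered 11% of changes of 0.5 and 61% of changes of 1 on the log2 scale. For region it recovered 66% and 94%. In the data far more genes were called, 29.4% higher and 31.9% lower at activation, and 11.9% and 11.8% for region. The adjusted threshold was thus stricter in the simulation, and these shares do not give the recovery in the data. For the qNSC-like age trend 0% and 0% were recovered, so that the absence of calls with age says little. P12 libraries only could not be run for neuroblast-like cells.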

Other observations

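Clusters that no marker list named also held members. A cluster led by Igf1 and Thrsp was closest to the qNSC markers, with Emx1 at 98.2 and Gsx2 at 1.97 CPM at P12. It summed to 30253, 20055, 18723 and 26199 CPM of members at P2, P12 replicate 1, P12 replicate 2 and P22. A cluster with Olig1, Olig2 and Egfr among its leading genes summed to 36082, 26459, 25511 and 32030.4 CPM, above the aNSC-like cells of each library. A cluster led by AY036118, with 65 and 224 cells in P12 replicates 1 and 2, 1 cell at P2 and a median of 5229 and 5572 UMIs per cell at P12, held 5877 and 5144 CPM of members beside 43147 and 40000.2 CPM of mt- genes in the P12 replicates.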
